A study of Mus musculus with 6 samples.

Results

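Transcripts of the red cell lineage were followed in microglia sorted from the mouse optic nerve. They were taken by symbol from the deposited gene table, where 7 of 37447 genes matched the names Hba-a1, Hba-a2, Hbb-b1, Hbb-b2, Alas2, Slc4a1 and Klf1. They were picked because globin levels were lower in the FMC libraries, so their FMC against FM values are given as a description and without a test. FMC mice (4 libraries) had the genotype Nf1 flox/mut; GFAP-Cre, and FM mice (2 libraries) had Nf1 flox/mut without the Cre transgene. All mice were C57BL/6 and 3 months old, and all carried the floxed and the mutant Nf1 allele, so neither group is wild type for Nf1. The Cre recombinase of FMC mice was under the GFAP promoter, a promoter of astroglia and their precursors, not of the sorted microglia. FMC 1, FMC 4 and FM 2 are labelled female, and FMC 2, FMC 3 and FM 1 male. Each library is described as a biological replicate, with no number of mice or nerves per library.

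Haemoglobin is a tetramer of alpha and beta globin chains, each holding a haem group, and in adult mice both chain types are made from duplicated genes. Globin messages dominate the RNA of erythroid precursors and of reticulocytes, the youngest circulating red cells, which have lost the nucleus but still hold messenger RNA. Alas2 makes the first and rate-limiting enzyme of haem synthesis in erythroid cells, Slc4a1 makes band 3, the anion exchanger of the red cell membrane, and Klf1 makes a transcription factor that binds CACCC elements, among them one in the adult beta globin promoter. Microglia, the resident macrophages of nervous tissue, are not known as a source of haemoglobin.

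The promoters of the adult globin genes are shown to compare the copies of each pair. Their shared order of FMC and FM is what they were picked for and is no sign of shared control. Promoters (250 bases before and 50 bases after the transcript start, RefSeq on GRCm38.p6) were found for 6 of the 7 genes. The identifiers that the table names Hbb-b1 and Hbb-b2 are named Hbb-bs and Hbb-bt in GENCODE M21, and their promoters were taken under those names. Capitals mark 4 short motifs on either strand: CACCC, bound by Klf1 and related factors, GATAA, bound by GATA factors, CCAAT, bound by NF-Y, and TATAA, the core of the TATA box. Matches may overlap, as TATAA does with its reverse complement in the Alas2 sequence.
Hba-a1 (chr11:32283422-32283721, plus strand): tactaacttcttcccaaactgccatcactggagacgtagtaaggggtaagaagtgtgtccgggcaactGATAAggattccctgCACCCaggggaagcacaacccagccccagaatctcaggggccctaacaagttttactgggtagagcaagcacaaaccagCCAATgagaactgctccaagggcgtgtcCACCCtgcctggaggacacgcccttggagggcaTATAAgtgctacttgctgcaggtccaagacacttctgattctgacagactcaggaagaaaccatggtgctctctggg
Hba-a2 (chr11:32296242-32296541, plus strand): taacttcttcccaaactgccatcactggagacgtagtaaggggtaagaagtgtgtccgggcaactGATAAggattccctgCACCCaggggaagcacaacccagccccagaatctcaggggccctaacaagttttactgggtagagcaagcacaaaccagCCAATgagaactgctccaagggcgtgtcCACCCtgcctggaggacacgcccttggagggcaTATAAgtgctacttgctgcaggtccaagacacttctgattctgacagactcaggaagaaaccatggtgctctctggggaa
Hbb-b1 (chr7:103827879-103828178, minus strand): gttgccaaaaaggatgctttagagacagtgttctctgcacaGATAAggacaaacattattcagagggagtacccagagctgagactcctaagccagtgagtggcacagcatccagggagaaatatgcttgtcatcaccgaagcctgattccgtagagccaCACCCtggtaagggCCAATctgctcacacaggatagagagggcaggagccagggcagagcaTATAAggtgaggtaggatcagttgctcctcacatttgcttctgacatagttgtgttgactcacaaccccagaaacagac
Hbb-b2 (chr7:103813874-103814173, minus strand): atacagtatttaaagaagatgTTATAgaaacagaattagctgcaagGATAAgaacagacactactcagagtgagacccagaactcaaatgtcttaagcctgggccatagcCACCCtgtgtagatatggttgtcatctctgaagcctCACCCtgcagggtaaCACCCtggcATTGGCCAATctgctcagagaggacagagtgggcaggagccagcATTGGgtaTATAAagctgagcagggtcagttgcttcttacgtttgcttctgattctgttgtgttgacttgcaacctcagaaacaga
Alas2 (chrX:150547167-150547466, plus strand): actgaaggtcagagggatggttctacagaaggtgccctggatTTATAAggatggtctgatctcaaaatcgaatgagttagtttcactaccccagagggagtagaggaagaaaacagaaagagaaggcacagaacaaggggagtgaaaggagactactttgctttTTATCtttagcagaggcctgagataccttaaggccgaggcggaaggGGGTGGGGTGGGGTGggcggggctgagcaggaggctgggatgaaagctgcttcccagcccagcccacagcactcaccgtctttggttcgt
All 4 globin promoters held all 4 motifs, Alas2 lacked CCAAT and Klf1 lacked TATAA in this window. Of 32851 RefSeq promoters of this length, 57.5% held CACCC, 25.4% GATAA, 37.4% CCAAT and 24.9% TATAA on either strand, and 1.51% held all 4. The 2 alpha globin promoters were identical over 297 aligned bases, so they are not 2 separate cases beside these shares. The 2 beta globin promoters were identical over 219 of 293 aligned bases (74.7%). A match of letters does not show that a factor binds there.

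The transcripts of each pair are close, which bears on every value given for a single copy. Hba-a1 and Hba-a2 were identical at 537 of 538 aligned bases (99.8%), and 86.9% of the 50-base windows of Hba-a2 also occurred in Hba-a1. Hbb-b1 and Hbb-b2 were identical at 580 of 626 aligned bases (92.7%), and 65.8% of the windows of Hbb-b1 also occurred in Hbb-b2. No 50-base window was shared between an alpha and a beta transcript. The sources used here do not state how reads that fit both copies were divided, so the sum of a pair is firmer than the value of either copy.

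The deposited values are FPKM, that is, fragment counts divided by transcript length and by the library total of mapped fragments. From the smallest steps between the values of long genes with a single transcript, the depth was estimated at 30600000, 22100000, 45000000 and 48600000 fragments in FMC 1 to FMC 4 and at 25800000 and 75300000 fragments in FM 1 and FM 2. Between 13333 and 15511 genes reached 1 FPKM in a library. The 10 microglial markers summed to between 2946 and 4494 FPKM in FMC and to 2961 and 5390 FPKM in FM, and Cx3cr1, the fractalkine receptor of microglia, stood at 70.3 to 110.3 FPKM in FMC and at 87.9 and 84.4 FPKM in FM. The 7 astrocyte markers summed to between 115 and 127 FPKM in FMC and to 118 and 136 FPKM in FM, most of it Slc1a3, a glutamate transporter gene named after its values were seen, at 104 to 120.2 FPKM in FMC and at 108 and 130.1 FPKM in FM. The astrocyte filament gene Gfap was at 0.224 to 0.309 FPKM in FMC and at 0.183 and 3.06 FPKM in FM. The myelin gene Mbp was at 1.79 to 17.9 FPKM in FMC and at 1.05 and 3.89 FPKM in FM, while the 8 oligodendrocyte markers summed to between 25.7 and 46.0 FPKM in FMC and to 17.2 and 34.0 FPKM in FM. The endothelial gene Cldn5 was at 0 to 0.118 FPKM in FMC and at 0.568 and 1.09 FPKM in FM.

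Alpha globin transcripts were low in all FMC libraries and higher in both FM libraries. Hba-a1 (ENSMUSG00000069919, chromosome 11, 32183511 to 32184465 in mm9) stood at 7.55, 4.85, 1.16 and 7.57 FPKM in FMC 1 to FMC 4, against 37.7 and 23.4 FPKM in FM 1 and FM 2. The groups did not overlap, FMC 3 was the lowest library and FM 1 the highest. The mean was 5.28 ± 3.03 FPKM in FMC (SD, n = 4) and 30.6 ± 10.1 FPKM in FM (SD, n = 2), a difference of -2.48 on the log2(FPKM + 1) scale, where 1 FPKM is added before the logarithm and the change of low genes is understated. Hba-a2 (ENSMUSG00000069917, chromosome 11, 32196489 to 32197301) stood at 12.2, 7.65, 0.506 and 3.53 FPKM in FMC 1 to FMC 4, against 31.9 and 20.1 FPKM in FM 1 and FM 2. Again FMC 3 was lowest and the groups did not overlap, but the margin was the narrowest of the 4 globins: the highest FMC value was 60.7% of the lowest FM value. The mean was 5.98 ± 5.09 FPKM in FMC and 26.0 ± 8.35 FPKM in FM, a log2 difference of -2.32. With the replicate number as a block, the difference of Hba-a2 was -1.30. In a bulk sample, fewer red cells or reticulocytes and less globin RNA per cell cannot be told apart.

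Beta globin transcripts showed the same order of the groups. Hbb-b1 (ENSMUSG00000052305, chromosome 7, 110975048 to 110976610 in mm9) stood at 5.10, 9.03, 3.86 and 5.05 FPKM in FMC 1 to FMC 4, against 60.7 and 50.2 FPKM in FM 1 and FM 2. It had the widest margin of the 7 genes, since its highest FMC value was 18% of its lowest FM value. The mean was 5.76 ± 2.26 FPKM in FMC (SD, n = 4) and 55.4 ± 7.4 FPKM in FM (SD, n = 2), a log2 difference of -3.11. In rank, Hbb-b1 was at or above between 74.8% and 82.5% of all genes in the FMC libraries, and at or above 96.8% and 94.7% in FM 1 and FM 2. Hbb-b2 (ENSMUSG00000073940, chromosome 7, 110961038 to 110962510) stood at 6.5, 0.685, 2.49 and 5.66 FPKM in FMC 1 to FMC 4, against 19.0 and 26.4 FPKM in FM 1 and FM 2. It was lowest in FMC 2, the library in which Hbb-b1 was highest among FMC. The mean was 3.83 ± 2.72 FPKM in FMC and 22.7 ± 5.2 FPKM in FM, a log2 difference of -2.50.

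Summed over the 4 adult globin genes, the level was 31.4, 22.2, 8.02 and 21.8 FPKM in FMC 1 to FMC 4, against 149 and 120.1 FPKM in FM 1 and FM 2. All FMC libraries lay below both FM libraries, and the FMC mean of 20.9 ± 9.63 FPKM (SD, n = 4) was 15.5% of the FM mean of 135 ± 20.7 FPKM (SD, n = 2). The beta sum separated the groups further than the alpha sum: the FMC mean was 12.3% of the FM mean for beta and 19.9% for alpha. Even in FM the globins were a small part of the library, between 0.00163% and 0.00496% of all FPKM in FMC and 0.0358% and 0.0198% in FM 1 and FM 2.

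**Figure D1:**
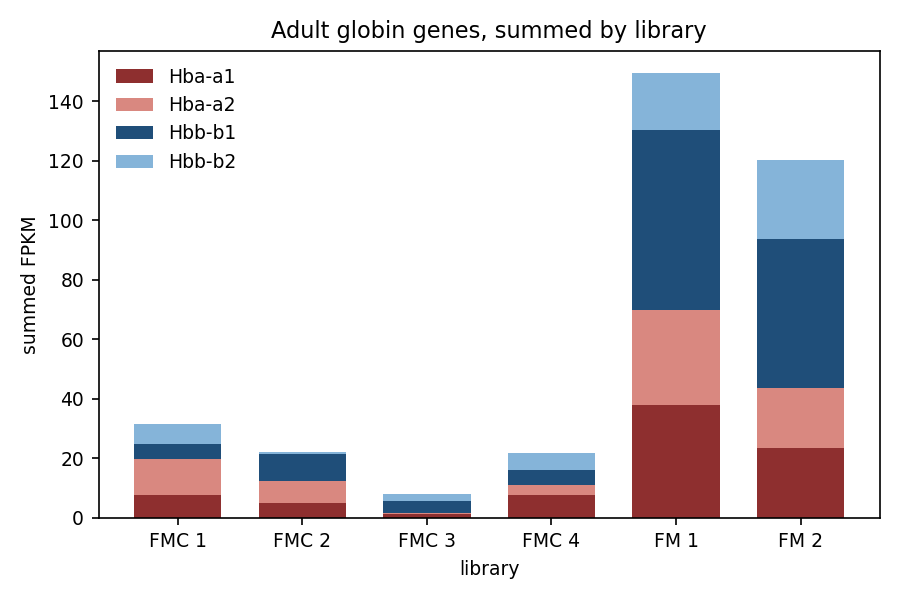
Summed FPKM (vertical axis, linear from 0) of the 4 adult globin genes in each library, stacked by gene. The 4 FMC libraries reach between 8.02 and 31.4 FPKM, and FM 1 and FM 2 reach 149 and 120.1 FPKM.

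The balance between globin genes varied more among FMC libraries than between the 2 FM libraries. The ratio of the alpha to the beta sum was 1.71, 1.29, 0.263 and 1.04 in FMC 1 to FMC 4, against 0.874 and 0.569 in FM 1 and FM 2. FMC 3 lay below and the other 3 FMC libraries above both FM libraries. The ratio of Hba-a1 to Hba-a2 was 0.618, 0.634, 2.30 and 2.15 in FMC 1 to FMC 4, against 1.18 and 1.16 in FM, so that no FMC library had the nearly even split seen in FM. Hbb-b1 exceeded Hbb-b2 in FMC 2 and FMC 3, with ratios of 13.2 and 1.55, but not in FMC 1 and FMC 4, with 0.785 and 0.892. In FM 1 and FM 2 that ratio was 3.19 and 1.90. These ratios rest on low values in FMC and, within a pair, on the division of shared reads.

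Alas2, the erythroid haem synthesis gene, had the same order of the groups as the globins at a lower level. Alas2 (ENSMUSG00000025270, chromosome X, 146981918 to 147005181 in mm9) stood at 0.380, 1.36, 1.08 and 1.52 FPKM in FMC 1 to FMC 4, against 6.05 and 7.96 FPKM in FM 1 and FM 2. The groups did not overlap, and the highest FMC value was 25.1% of the lowest FM value. The mean was 1.08 ± 0.503 FPKM in FMC (SD, n = 4) and 7.01 ± 1.35 FPKM in FM (SD, n = 2), a log2 difference of -1.97. The globin sum was 82.5, 16.4, 7.44 and 14.3 times the Alas2 level in FMC 1 to FMC 4 and 24.7 and 15.1 times in FM 1 and FM 2. Alas2 was lowest in FMC 1, which had the highest globin sum of the FMC libraries in FPKM, while in TPM the sum was highest in FMC 2 (46.7 TPM in FMC 1 and 49.6 TPM in FMC 2).

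In Slc4a1 and Klf1 the groups overlapped. Slc4a1 (ENSMUSG00000006574, chromosome 11, 102210138 to 102227517 in mm9) stood at 0.310, 1.71, 0.0422 and 1.75 FPKM in FMC 1 to FMC 4, against 2.36 and 0.0979 FPKM in FM 1 and FM 2. The 2 FM libraries were the highest and the second lowest of the 6, so the groups overlapped. The mean was 0.953 ± 0.904 FPKM in FMC and 1.23 ± 1.6 FPKM in FM, and the log2 difference of -0.10 turned to 0.70 without FM 1, 0.16 without FMC 3 and 0.05 without FMC 1. Klf1 (ENSMUSG00000054191, chromosome 8, 87425827 to 87429194) stood at 0.0343, 0, 0.148 and 0.393 FPKM in FMC 1 to FMC 4, against 0.744 and 0.263 FPKM in FM 1 and FM 2. The mean was 0.144 ± 0.178 FPKM in FMC (SD, n = 4) and 0.503 ± 0.340 FPKM in FM (SD, n = 2), a log2 difference of -0.39. FMC 4 lay above FM 2, and the other 3 FMC libraries lay below both FM libraries. Klf1 reached 1 FPKM in no library and was not in the fits across genes. For its transcript 1 fragment was worth between 0.00998 and 0.0340 FPKM by the depth estimate, and the listed 0 in FMC 2 allows up to 0.102 FPKM (3 fragments, counting error only). Its values correspond to about 1.40, 0, 8.82 and 25.4 fragments in FMC 1 to FMC 4 and to about 25.5 and 26.4 fragments in FM 1 and FM 2, so FMC 4 and the FM libraries rest on like numbers of fragments at different depths.

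**Figure D2:**
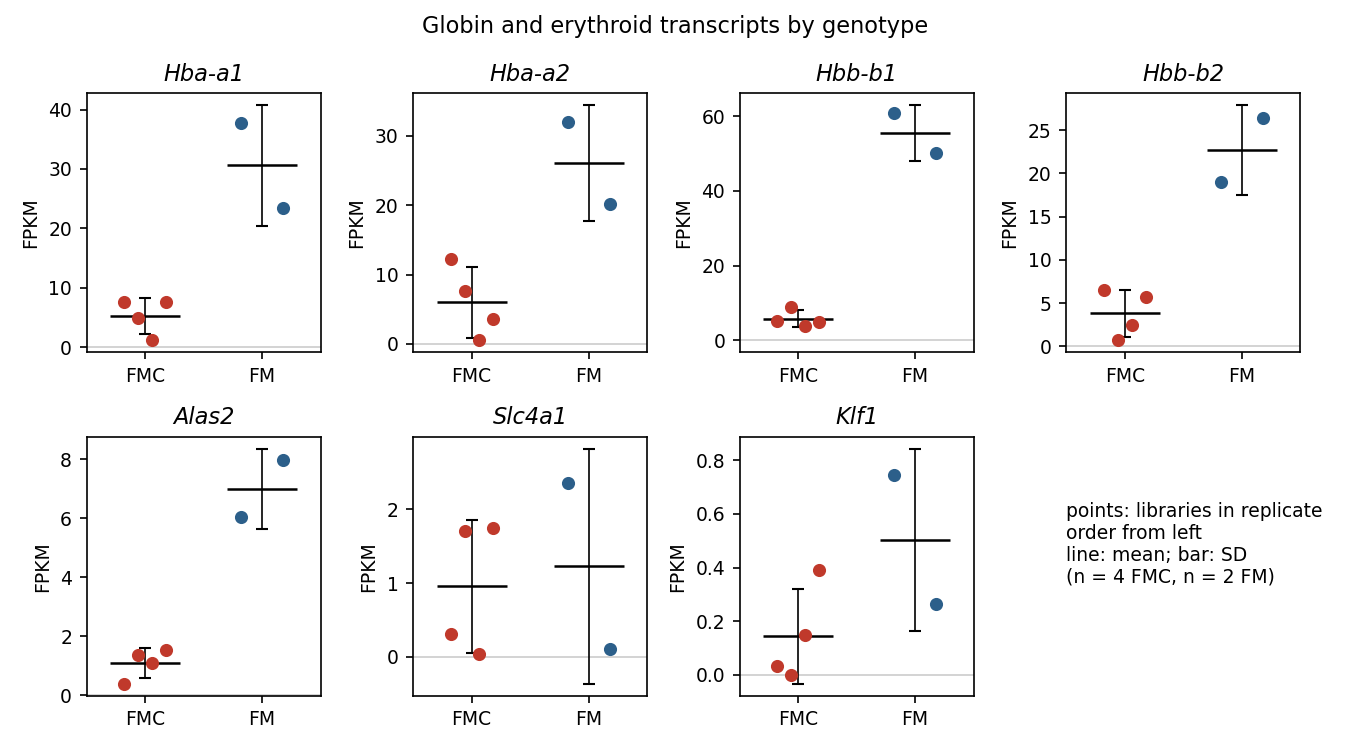
FPKM of the 7 genes (vertical axes, linear, 1 scale per gene) in FMC and FM libraries, with each library as a point, the mean as a line and the SD as a bar (n = 4 FMC, n = 2 FM). The groups separate for the 4 globins and Alas2 and overlap for Slc4a1 and Klf1.

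Of the 7 genes, 6 reached at least 1 FPKM in at least 2 libraries, the filter of the fits across 18208 genes, and all FMC libraries lay below both FM libraries in 5 of these 6. Over all genes tested that order was found in 8.22%, and the reverse order in 4.34%. The genes were chosen for this contrast, so nothing is read from the count. The median log2 difference over the 6 genes was -2.40, beside a median of -0.12 over all genes tested, of which 56.5% were below 0. Limma called 5 genes at an adjusted p under 0.05 (0.0275% of those tested), all lower in FMC, and none of them was in the lists of other globin, red cell, haem or iron genes.

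Libraries whose titles carry dates 1 day apart were also compared, although what those dates stand for is not stated. Hba-a1 differed by -2.73 between FMC 2 and FM 1 and by -3.50 between FMC 3 and FM 2 on the log2(FPKM + 1) scale. Hbb-b1 differed by -2.62 and -3.40 in the same pairs, and Alas2 by -1.58 and -2.11. Hba-a2 differed by -1.93 and -3.81 and Hbb-b2 by -3.57 and -2.97. In these 5 genes all FMC libraries lay below both FM libraries, so the sign of each pair is fixed by that order and only the sizes are given. FMC 3 is male and FM 2 female, so that pair mixes sex with genotype.

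Sex was not used to choose the genes and was tested with genotype in the model. No gene was called (limma, 0 of 18208, background 0%, with 1011 genes higher and 343 lower in females at an unadjusted p under 0.05), and the smallest adjusted p among the 6 globin and erythroid genes was 0.748. The balance of the unadjusted counts turned with the scaling, to 525 higher and 809 lower with TPM scaling, and was 634 higher and 478 lower with quantile normalization. The median sex difference over all genes was 0.15, and -0.24 with TPM scaling. Hbb-b2 was 1.18 ± 0.68 (SE) higher on the log2 scale in the 3 female than in the 3 male libraries (limma, adjusted p = 0.748). Among female libraries it was 6.5, 5.66 and 26.4 FPKM in FMC 1, FMC 4 and FM 2, against 0.685, 2.49 and 19.0 FPKM in the male FMC 2, FMC 3 and FM 1. Hba-a1 differed by 0.62 ± 0.71 and Hba-a2 by 0.52 ± 0.89 between female and male libraries (adjusted p = 0.922 and 0.967). Hbb-b1 differed by -0.22 ± 0.55, Alas2 by -0.05 ± 0.70 and Slc4a1 by -0.42 ± 0.69 (limma, adjusted p from 0.962 to 0.997). The interaction of genotype and sex called 0 genes as well (background 0%, 324 above and 362 below 0 at an unadjusted p under 0.05), and its adjusted p was 0.999 for each of the 6 genes. With 3 libraries of each sex, and 1 FM library of each sex for the interaction, these tests detect only large differences at best. As 0 genes were called, no tested gene of the X or Y chromosome was called either. The labels of sex were not checked by such genes. The lack of a call is therefore not read as the lack of a sex difference.

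The other globin genes did not have the order of the adult genes. Hbb-bh1, a beta-like globin of the embryo, stood at 0, 0.301, 10.2 and 64.5 FPKM in FMC 1 to FMC 4, against 1.96 and 0.321 FPKM in FM 1 and FM 2 (log2 difference 1.49 ± 1.61 SE, limma adjusted p = 0.996). In FMC 4 it exceeded every adult globin gene, and Hbb-y, the embryonic epsilon-like globin, was also highest there: its 4 FMC values were 0, 0, 0 and 14.1 FPKM, against 2.36 and 2.27 FPKM in FM 1 and FM 2. Hba-x, the embryonic zeta-like globin, was instead listed at 0 in FMC 4. Its values were 2.42, 1.55 and 0.373 FPKM in FMC 1 to FMC 3, against 0.570 and 0.217 FPKM in FM 1 and FM 2. Hbq1b, a theta globin gene, was at 10.5, 13.4, 0.259 and 3.33 FPKM in FMC 1 to FMC 4, against 8.88 and 8.37 FPKM in FM, overlapping between the groups (adjusted p = 0.999). Of 8 other globin genes 4 were tested and 0 were called. Hbb-y and Hba-x were named after their values were seen.

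Genes of the red cell membrane and cytoskeleton lay on both sides of 0. Of 21 such genes, 13 were tested and 0 called, and 8 were above 0 and 5 below, with a median log2 difference of 0.12. Darc, the Duffy antigen and chemokine receptor of red cells and venules, had the smallest p of the list (0, 0.268, 0.664 and 0.0253 FPKM in FMC 1 to FMC 4, against 5.49 and 2.07 FPKM in FM, adjusted p = 0.672). Its groups did not overlap. In Cd59a, a complement inhibitor, all FMC libraries lay above FM instead, at 1.28 to 5.97 FPKM in FMC against 1.23 and 0.00882 FPKM in FM (adjusted p = 0.993). Xk, a membrane protein of the Kell complex, was at 0.295 to 2.42 FPKM in FMC and at 0.173 and 0.0422 FPKM in FM. Kel, the Kell antigen, was at 54.3 FPKM in FMC 1 and between 0.0650 and 3.75 FPKM in the other 5 libraries. Kel was named after its values were seen.

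Among red cell enzymes and globin partners 13 of 15 genes were tested and 0 called, with 10 below 0 and a median of -0.43. Bpgm, which makes the regulator 2,3-bisphosphoglycerate, stood at 1.19, 2.72, 2.51 and 0.518 FPKM in FMC 1 to FMC 4, against 16.9 and 4.43 FPKM in FM 1 and FM 2 (log2 difference -1.94 ± 0.84 SE, limma adjusted p = 0.906). The carbonic anhydrase gene Car1, named after its values were seen, was at 0.0342, 0.373, 0 and 2.49 FPKM in FMC 1 to FMC 4, against 14.2 FPKM in FM 1 and 0.0282 FPKM in FM 2. Car2, also named after its values were seen, was at 0.0839, 0.173, 0.0147 and 11.9 FPKM in FMC 1 to FMC 4, against 16.3 and 2.03 FPKM in FM 1 and FM 2. Both enzymes were higher in FM 1 than in FM 2. The globin sum differed less between them, at 149 and 120.1 FPKM in FM 1 and FM 2, or 358 and 198 TPM. Ube2l6, a ubiquitin-conjugating enzyme gene that interferon also induces, was at 4.52 to 14.6 FPKM in FMC and at 1.27 and 4.96 FPKM in FM.

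Of 16 genes for erythroid transcription factors and the erythropoietin receptor, 13 were tested and 0 were called. Of these 13, 5 lay above 0 and 8 below, with a median of -0.23. The receptor gene Epor, named after its values were seen, did not pass the filter and was not tested. It was at 0.0241 to 0.382 FPKM in FMC and at 0.144 and 1.49 FPKM in FM 1 and FM 2. Klf3, a Klf1-related repressor also made in other blood cells, was at 125 to 158 FPKM in FMC and at 96.2 and 70.4 FPKM in FM (log2 difference 0.73 ± 0.42 SE, adjusted p = 0.993). Runx1 and Ikzf1, which microglia and other blood lineages express, also lay above FM in all FMC libraries, at 64.4 to 87.3 and at 94.2 to 144.9 FPKM in FMC, against 39.6 and 47.2 FPKM and 82.4 and 87.1 FPKM in FM 1 and FM 2. Hemgn, a nuclear protein of blood progenitors, was at 0.324 to 0.796 FPKM in FMC and at 1.83 and 1.44 FPKM in FM, with no overlap. Gata1, a regulator of the erythroid lineage named after its values were seen, stayed under 1 FPKM in all 6 libraries, with 0.0205, 0.644, 0 and 0.250 FPKM in FMC 1 to FMC 4, against 0.0243 and 0.243 FPKM in FM 1 and FM 2.

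Haem synthesis genes other than Alas2 also lay on both sides of 0: 15 genes were tested, 0 called, 7 above and 8 below 0, with a median of -0.05. Alas1, the form of the enzyme that all cells use, lay above FM in all FMC libraries, at 55.1, 17.7, 18.9 and 27.3 FPKM in FMC 1 to FMC 4, against 14.2 and 17.3 FPKM in FM (log2 difference 0.73 ± 0.59 SE, limma adjusted p = 0.993), the reverse of the order in Alas2. Uros, the fourth enzyme of the pathway, was at 2.50, 9.97, 0.957 and 1.72 FPKM in FMC 1 to FMC 4, against 8.84 and 15.2 FPKM in FM, and Ppox, the enzyme before the last, at 28.2 to 272 FPKM in FMC and at 31.6 and 32.2 FPKM in FM.

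Of 23 genes for haemoglobin and iron handling tested, 0 were called, 15 were below 0, and the median was -0.18. Slc11a2, which carries iron across membranes, had the smallest p of all these lists: 3.54, 2.64, 6.38 and 6.30 FPKM in FMC 1 to FMC 4, against 189.5 and 26.3 FPKM in FM 1 and FM 2 (log2 difference -3.72 ± 0.82 SE, limma adjusted p = 0.403). FMC also lay below FM in haptoglobin (Hp), which binds free haemoglobin, in the transferrin receptor gene Tfrc and in Aco1, an iron-sensing RNA-binding protein. Their values were 0.575 to 8.22 FPKM in FMC against 8.45 and 13.1 FPKM in FM for Hp, 0.832 to 7.77 against 19.1 and 8.19 FPKM for Tfrc, and 6.04 to 12.5 against 23.0 and 15.3 FPKM for Aco1 (adjusted p = 0.993 for each). Spic, a transcription factor of iron-recycling macrophages, was at 0.316 to 3.68 FPKM in FMC and at 0.718 and 0.0174 FPKM in FM. Hmox1, which opens the haem ring, was named after its values were seen: it was at 15.9, 19.9, 15.0 and 24.5 FPKM in FMC 1 to FMC 4, against 14.8 and 34.0 FPKM in FM.

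Over these lists together 81 of 99 genes were tested and limma called 0 (3 at an unadjusted p under 0.05). All FMC libraries lay below both FM libraries in 7 and above in 6 of the 81, beside 8.22% and 4.34% of all genes tested. The median log2 difference was -0.18, beside -0.12 for all genes tested. Of the 43 tested genes outside haem and iron handling, the highest library was FM 1 in 12, FMC 4 in 10, FMC 1 in 9, FM 2 in 7, FMC 3 in 3 and FMC 2 in 2. That count was not made over all genes tested, so no trait of red cell genes is read from it.

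**Figure D3:**
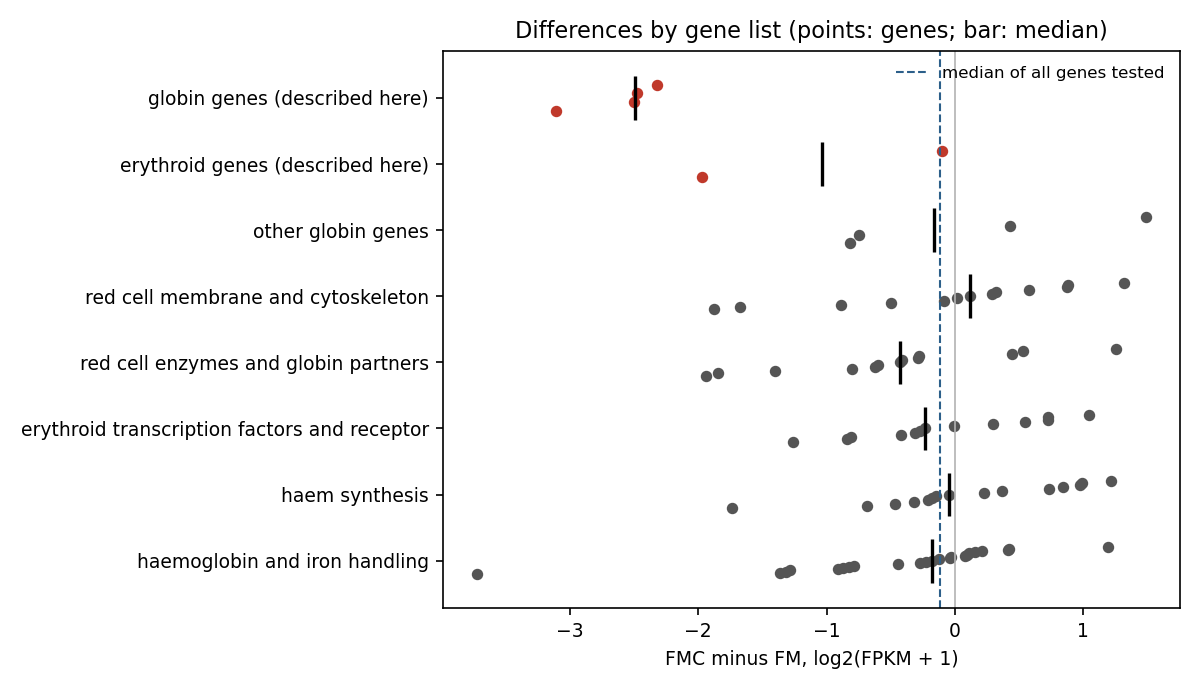
FMC minus FM differences on the log2(FPKM + 1) scale (horizontal axis) of the genes tested, by list, with a bar at each list's median and a dashed line at the median of all genes tested (-0.12). The 4 globins lie between -3.11 and -2.32, and the erythroid genes Alas2 and Slc4a1 at -1.97 and -0.10. The lists of genes beyond the 7 spread on both sides of 0.

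**Figure D4:**
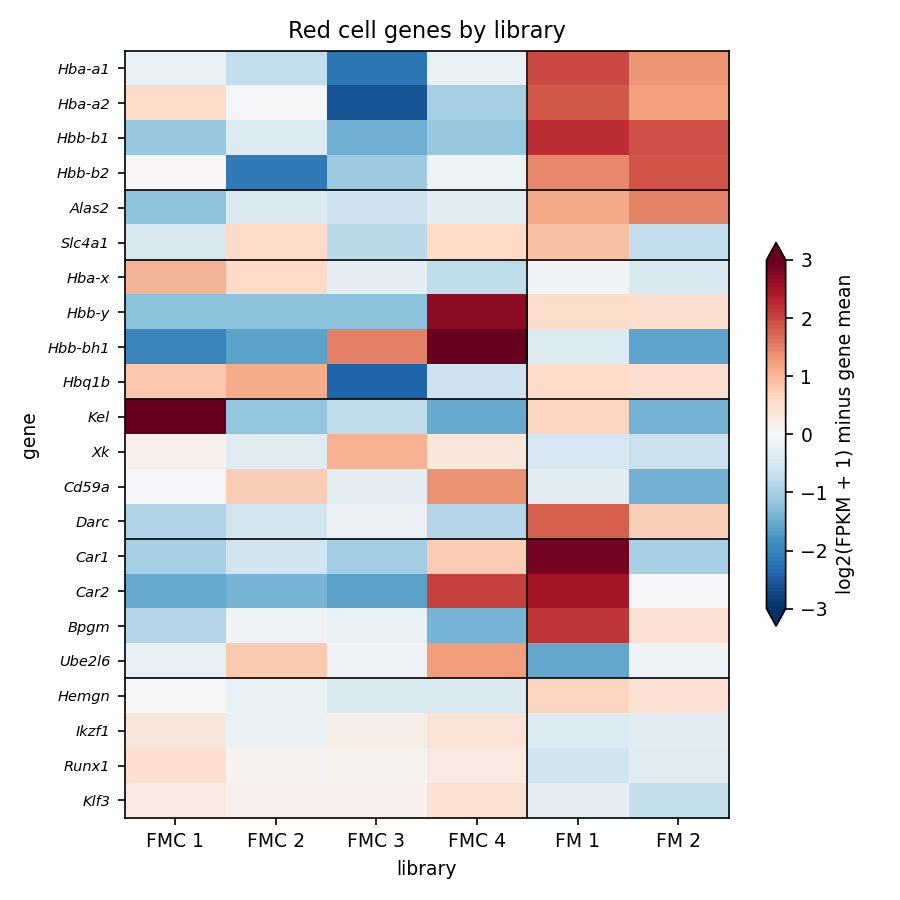
Levels of the tested globin and red cell genes named in the text (rows, grouped by list) in the 6 libraries (columns), as log2(FPKM + 1) minus the gene's mean, with the colour scale ending at -3 and 3. The adult globins and Alas2 are high in FM 1 and FM 2, while Hbb-bh1 and Hbb-y are highest in FMC 4, Kel in FMC 1 and Car1 and Car2 in FM 1.

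Markers of other blood and vessel cells were compared beside the globins. The 9 platelet and megakaryocyte markers, of which 6 were tested and 4 lay below 0, summed to between 82.6 and 164 FPKM in FMC and to 168 and 263 FPKM in FM. Most of that sum was Pf4, platelet factor 4, which macrophages also express, at 54.3, 72.4, 53.5 and 110.1 FPKM in FMC 1 to FMC 4, against 128 and 208 FPKM in FM 1 and FM 2 (limma, adjusted p = 0.826). Ppbp, another platelet chemokine named after its values were seen, stayed under 1 FPKM in all libraries. The 11 pericyte and fibroblast markers, of which 10 were tested and 8 lay below 0, summed to between 17.3 and 116 FPKM in FMC and to 110.3 and 161 FPKM in FM. The highest FMC sum, in FMC 1, was mostly Dcn at 90.2 FPKM. In 3 of the 10 tested all FMC libraries lay below FM. Of these Mgp, an inhibitor of calcification, was at 3.77, 4.39, 15.1 and 11.6 FPKM in FMC 1 to FMC 4, against 74.5 and 128 FPKM in FM (limma, adjusted p = 0.250). The collagen genes Col1a1, at 0.680 to 3.76 against 8.39 and 8.90 FPKM, and Col3a1, at 0.0482 to 2.91 against 3.55 and 3.67 FPKM, were the others. Col1a1, Col3a1 and Dcn were named after their values were seen. The neutrophil marker sums, at 371 to 676 FPKM in FMC and 546 and 314 FPKM in FM, overlapped between the groups. S100a8 was at 17.1 to 190 FPKM in FMC and at 213 and 40.2 FPKM in FM. Csf3r was the largest member in FMC 2, FMC 3, FMC 4 and FM 2, at 205, 301, 282 and 263 FPKM. In FMC 1 and FM 1 the largest was S100a8. Of 9 tested, 5 lay above 0 and 4 below, with 0 called. Ly6g was higher in FMC without overlap, at 8.06 to 23.0 FPKM against 6.25 and 0.408 FPKM in FM (limma, adjusted p = 0.689). Retnlg was lower without overlap, at 0 to 1.64 against 3.43 and 4.45 FPKM (adjusted p = 0.719). Csf3r, Ly6g and Retnlg were named after their values were seen. The sums of T cell markers (32.0 to 274 and 27.2 to 37.1 FPKM in FMC and FM), of B cell markers (23.3 to 130 and 38.6 to 118 FPKM) and of endothelial markers (26.4 to 44.9 and 32.1 to 33.5 FPKM) overlapped too. Of the T cell markers 9 of 10 tested lay above 0 (median log2 difference 1.03) and of the B cell markers 5 of 6 (median 0.46), and of the endothelial markers 6 of 7 lay below 0 (median -0.12), with 0 called in each. Monocyte markers summed to 65.0 to 99.9 FPKM in FMC and to 55.3 and 60.8 FPKM in FM. No list had a marker at 0 in all 6 libraries. The part of these cells in the globin levels was not tested.

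The genes most like the adult globins across the 6 libraries were ranked by the root mean square difference between centred log2(FPKM + 1) profiles, among 8304 named genes with a mean of at least 5 FPKM. The first was Wdr91, an endosomal protein gene, with a difference of 0.32, at 10.9, 4.45, 2.61 and 5.59 FPKM in FMC 1 to FMC 4, against 39.1 and 19.8 FPKM in FM 1 and FM 2. Vegfa, the vascular growth factor, followed with 0.37, at 2.74, 1.21, 0.701 and 3.13 FPKM in FMC, against 28.2 and 20.6 FPKM in FM. Slc1a5, a glutamine transporter gene, differed by 0.42, Mif4gd by 0.42 and Olfr476 by 0.44. By the same measure Hba-a1 itself lay 0.26 from the globin mean, Hbb-b1 0.53, Hba-a2 0.58, Hbb-b2 0.68, Alas2 0.74 and Slc4a1 1.35. None of the 5 genes is in the red cell lists, and 3 of the 4 globins lay farther from the mean of the globins than all 5 of them. The globins were picked for the FMC against FM contrast, so the ranking largely repeats that contrast. The 5 genes are the closest of 8304, and a search of that size finds close profiles by itself. No relation of these genes to the globins is read from it.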

How the data were processed

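Gene levels were measured by RNA sequencing in 6 libraries of flow-sorted optic nerve microglia. Per the labels' protocols, RNA was extracted with TRIzol and amplified with the Ovation RNA-Seq method before paired-end sequencing on an Illumina HiSeq. Per the submitters' processing notes, the tools were Cufflinks 2.0.2, Bowtie2 2.0.0, TopHat2 2.0.4 and CASAVA 1.8.2 and the build mm9, with no roles or settings given. Strand and multi-read settings are not given in the sources used here. The deposited table holds FPKM by the authors for each gene and library. Starts in the table count from 0 (21681 gene lengths equal those of GENCODE M21 that way, 420 otherwise) and are given here from 1.

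Of 37447 genes, 426 lack a value in a library and were left out. Because 32 of 37 mitochondrial genes are listed at 0 throughout, a 0 may be a failed estimate. FPKM were tested as log2(FPKM + 1) with limma 3.58.1 in R 4.3.3 (intensity trend, two-sided, Benjamini-Hochberg over the 18208 genes that reached 1 FPKM in 2 or more libraries, threshold 0.05). Genotype had no covariate, sex kept genotype, and another fit held the interaction. No count test was run. Depth was estimated from the lowest peak of FPKM times transcript length less 200 bases. Subtracting fewer or more bases gave 67300000 or 89600000 fragments for FM 2, the deepest library. Short globin transcripts depend most on that choice, so fragments are given for Klf1 alone. Transcripts were aligned with Biopython 1.88. The fits were also run on simulated data with known changes, whose outcome is not given here.

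The genes and lists were chosen with earlier results of these data known. Named were the 7 genes, and per list the 2 with the smallest p and up to 4 others whose groups do not overlap. The first gene of each marker list and Mgp were added, and the 5 most alike genes. Where a symbol has several rows, that of highest mean stands for it. Several list genes are not reported here. Of the marker lists, Cd3e and Ly6c2 overlapped between the groups. Alternatives were another pseudocount, filters, scalings, covariates, blocks and the omission of each library. P-values measure the spread between these libraries.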

Additional observations from a re-analysis of the deposited data

Results flagged for a closer look

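In the 4 FMC libraries a sample was called far from the others when its gap to the nearest value, divided by the range, was above Dixon's 95% critical value. This was met by 5 of 34 values, where chance gives about 5% of groups if the values are independent and normally spread. The values here were not log-transformed, and some are sums or ratios of the same genes. Hbb-y was added to the 34 after its values were seen. No excess over chance is therefore read from the count. Hbb-bh1 was at 64.5 FPKM in FMC 4, with the next FMC library at 10.2 FPKM. Hbb-y reached 14.1 FPKM in FMC 4, while FMC 1 to FMC 3 had 0 FPKM. The ratio of Hbb-b1 to Hbb-b2 was 13.2 in FMC 2, with the next FMC library at 1.55. The ratio of the globin sum to Alas2 was 82.5 in FMC 1, with the next FMC library at 16.4, because Alas2 was lowest there. Uros was at 9.97 FPKM in FMC 2, with the next FMC library at 2.50 FPKM. The 4 globins, Alas2, Slc4a1 and Klf1 themselves had no such library.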

How the results depend on the processing

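The log2 differences of the 4 globins and Alas2 between FMC and FM were negative under all 16 alternatives, from -3.11 to -2.03 for Hba-a1, -2.87 to -1.30 for Hba-a2, -3.34 to -2.84 for Hbb-b1, -3.27 to -2.07 for Hbb-b2 and -2.71 to -1.76 for Alas2. The choice of genes fixes that direction. The median of all genes moved to -0.25 with TPM scaling and 0.02 with quantile normalization, against -0.12. Slc4a1 (-0.10) turned to 0.05 without FMC 1, 0.16 without FMC 3 and 0.70 without FM 1, in a range of -0.91 to 0.70. Klf1 (-0.39) stayed below 0, in a range of -1.46 to -0.16. The deviations of same-numbered libraries from their group means correlated at r of 0.03 and -0.06 across genes. With 2 FM libraries the deviation of FM 1 is the exact reverse of that of FM 2, so this check cannot exclude pairing. The numbers were not taken as pairs in the main fit, and the replicate block is among the alternatives. The 5 genes called between genotypes became 1 with a pseudocount of 0.1 (higher in FMC), 10 without the intensity trend (all lower), 3 with a title date block (2 higher, 1 lower), and 0 with no filter, with a mean of at least 5 FPKM, with sex as covariate and with a replicate block. Omitting each library gave 0 to 8, with 4 higher and 4 lower without FMC 4, so the direction of the calls changed too. With only 1 FM library left, its spread is taken from FMC. The pathway lists held 0 called genes under all 16 alternatives, the replicate block among them. The 0 genes called for sex became 6 without genotype as covariate, and 0 to 4 on omitting a library. A block could not be fitted beside sex and genotype. Between female and male libraries, omitting a library gave Hba-a2 -0.37 to 1.10 (below 0 without FMC 1 or FMC 3), Hbb-b1 -0.53 to 0.068 (above 0 without FMC 2), Alas2 -0.25 to 0.26 (above 0 without FMC 1 or FMC 2), Slc4a1 -0.98 to 0.18 and Klf1 -0.23 to 0.16 (both above 0 without FM 1 or FM 2, Klf1 also without FMC 1). Klf1 turned to 0.067 with a pseudocount of 0.1, against -0.046. The log2 difference of the globin sum was -2.77, and -2.94 with TPM scaling. The small FM group and the unknown division of shared reads limit precision.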

Other observations

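In all 13 alpha and beta globin genes and pseudogenes have a row, the 4 adult genes included. Those given here were named after their values were seen. Hbq1a and Hbb-bh0 were listed at 0 in all 6 libraries. Hbb-bh3 was at 2.86 FPKM in FM 1 and listed at 0 in the other 5 libraries. Hbb-bh2 was at 11.2 FPKM in FMC 1, listed at 0 in FMC 2 and FMC 4 and at 0.415 FPKM in FMC 3, against 0.293 and 0.116 FPKM in FM 1 and FM 2. The alpha pseudogene Hba-ps4 was at 0.359 FPKM in FMC 2 and 0.198 FPKM in FMC 3 and listed at 0 elsewhere. Of globins outside the red cell lineage, the highest listed value was 0.466 FPKM for myoglobin (Mb), 0.451 FPKM for cytoglobin (Cygb) and 0.0722 FPKM for neuroglobin (Ngb). Mb was listed at 0 in 2, Cygb in 3 and Ngb in 5 of the 6 libraries, and a listed 0 is not read as absence of the transcript.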
